A study of Homo sapiens with 8 samples.

Results

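The sites described here were 408 stretches of chromatin that were accessible in every wild-type (WT) library and in no ASH1L knockout (ALKO) library of U2OS cells, a human osteosarcoma line. ATAC-seq reads out accessibility through the Tn5 transposase, which cuts exposed DNA and leaves adapters at the cuts, and each library had its own list of peaks on human genome build hg38. Merging the regions of the 8 lists gave 547779 union sites. Sites were chosen by the presence or absence of peak calls: a site was kept if a region overlapped it in all 4 WT lists and in none of the 4 ALKO lists. The rule kept 421 sites, of which 13 between 95 and 100 Mb of chromosome 13 were left out because that stretch as a whole held fewer regions in the knockout. The remaining 408 sites were 0.0745% of the 547449 union sites outside that stretch. The genotype contrast itself chose them, so their difference between WT and ALKO is a description and carries no test.

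There were 2 libraries in each of 4 groups, WT or ALKO cells that were unchallenged or taken 3 h post UV. The UV groups had received 20 J/m2 of UV-C and recovered for 3 h, and all cells were treated with DNase before nuclei were tagmented. The knockout was an isolated colony made with CRISPR/Cas9, whose guides cut exon 2 and a pair of later exons of ASH1L, so the effect of losing ASH1L and any other difference of that clone cannot be told apart. The deletions are too short to be seen in lists of peaks, and a region at the ASH1L promoter was present in all 8 lists, so the lists do not check the genotype. Within the ASH1L gene the WT lists held 14, 14, 11 and 9 regions and the ALKO lists 4, 3, 4 and 9. No site of the 408 lay in ASH1L. The labels call the replicates biological. The lists held 158198 to 220783 regions, and the mean pileup of reads over the genome, a measure of depth, was 1.74 to 2.67 in the WT libraries and 1.39 to 5.87 in the ALKO libraries.

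ASH1L is a histone methyltransferase that acts with its partner MRG15 and methylates histone H3, and it is known for keeping developmental genes active. Accessible chromatin marks promoters, where transcription starts, and enhancers, distal elements bound by sequence-specific factors. In mesenchymal cells such as osteosarcoma lines many enhancers hold binding sites of AP-1 (dimers of FOS and JUN proteins), TEAD and RUNX factors. SP/KLF and NFY motifs are typical of promoters, and CTCF binds insulators.

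The sequences of 3 strong sites are given as examples. They are the 2 strongest sites and the strongest one at a promoter, each given as 300 bases around the summit, on the plus strand of hg38, with matches to any of 15 motifs searched in capitals. The first, at chr21:10615971-10616270, lies in no annotated gene and holds RUNX (TGNGGT) and NFY (CCAAT) matches. The second, at chr2:121521479-121521778, lies in an intron of CLASP1 and holds an AP-1 match (TGANTCA). The third, at chr10:133565500-133565799, lies at a start site of SYCE1.
Chromosome 21 site: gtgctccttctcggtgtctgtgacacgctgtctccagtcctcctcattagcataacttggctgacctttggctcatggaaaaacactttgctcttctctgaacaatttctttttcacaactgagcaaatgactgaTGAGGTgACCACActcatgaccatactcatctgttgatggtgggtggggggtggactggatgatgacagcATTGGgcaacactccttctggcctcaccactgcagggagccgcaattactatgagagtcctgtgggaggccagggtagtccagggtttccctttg
CLASP1 site: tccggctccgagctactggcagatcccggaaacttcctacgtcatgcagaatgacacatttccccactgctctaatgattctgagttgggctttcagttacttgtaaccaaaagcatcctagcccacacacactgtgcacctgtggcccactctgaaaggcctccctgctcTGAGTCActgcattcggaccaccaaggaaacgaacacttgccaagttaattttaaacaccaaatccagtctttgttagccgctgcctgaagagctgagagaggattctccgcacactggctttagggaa
SYCE1 site: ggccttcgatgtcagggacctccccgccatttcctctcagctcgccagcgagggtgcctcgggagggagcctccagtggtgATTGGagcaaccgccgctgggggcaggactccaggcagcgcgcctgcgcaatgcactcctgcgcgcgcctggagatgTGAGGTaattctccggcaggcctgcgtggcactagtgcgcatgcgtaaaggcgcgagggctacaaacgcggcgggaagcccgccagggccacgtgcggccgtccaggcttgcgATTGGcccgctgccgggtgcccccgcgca

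Most of the 408 sites were weak. The fold enrichment of a region is the pileup of reads at its summit divided by the local background of the same library, and it was not normalized between libraries. Its median over the sites was 3.23 and 3.65 in the unchallenged WT libraries and 3.40 and 4.63 in the WT libraries 3 h post UV. Over all 71685 sites with a region in all 4 WT lists the medians were 5.69, 6.94, 6.799 and 10.2. The corresponding median summit pileups of the 408 sites were 11, 10, 13 and 21 reads, recovered from the fold enrichment and p-value of each region. Ranked by fold enrichment within each list, a site had a median mean percentile of 45.2, against 76.8 over all sites of the 4 WT lists. A false discovery rate (q-value) below 0.05 was reached by 342, 356, 358 and 395 of the 408 sites, and by 271 in all 4 WT lists. All 4 WT lists placed 6 of the sites in their top quartile, and none of them did so for 330.

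**Figure D1:**
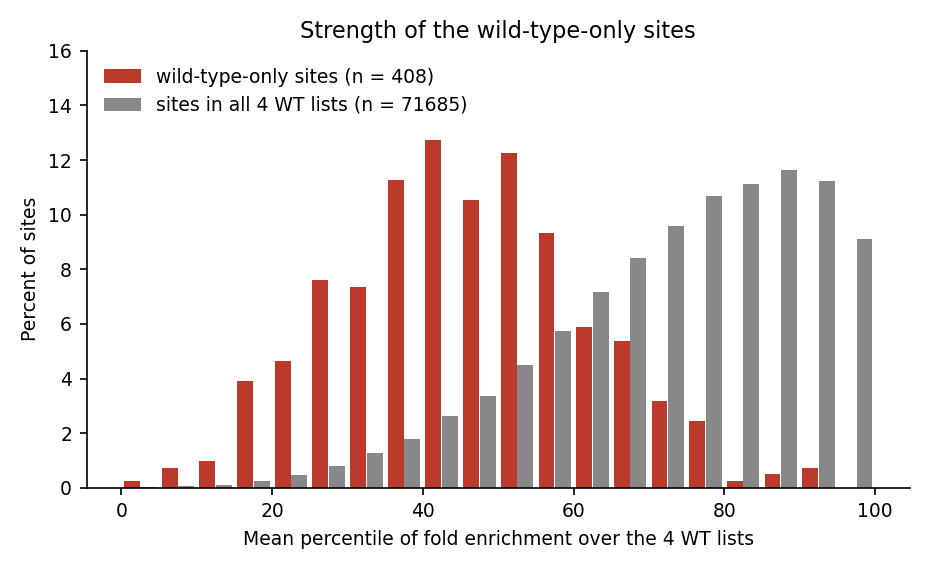
Percent of sites (vertical axis) in bins of 5 of the mean percentile of fold enrichment over the 4 WT lists (horizontal axis), for the 408 wild-type-only sites in red and for all 71685 sites held by the 4 WT lists in grey. The red bars centre near the median of 45.2 and the grey bars rise to the right, with a median of 76.8.

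The share of wild-type-only sites fell with strength. Outside the chromosome 13 stretch they were 6.35% of the 677 sites of the 4 WT lists with a mean percentile up to 25, 2.86% of 7074 between 25 and 50, 0.581% of 25319 between 50 and 75, and 0.0415% of 38525 above 75. The rule used the presence or absence of regions, and a region was listed only where it reached a p-value limit. Presence thus depends on strength, and weak sites lie closer to that limit. Absence from the ALKO lists was fixed by the rule, so this gradient is a description. The part of it that the rule builds in was not tested. Regions with p-values up to 0.01 were listed. In the ALKO libraries the lowest summit pileup that could reach it was between 2.04 and 3.60 times the depth, highest in the shallowest, unchallenged replicate 2. The mean pileup over depth of a site in the 4 WT libraries was above that limit of all 4 ALKO libraries for 404 of the 408 sites, and the lowest of its 4 WT values for 278. The limit holds for the lowest background of a library, and a higher local background raises it. The sites were also chosen by their WT regions. These counts therefore cannot tell whether a site was within reach of an ALKO library.

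At the edge of the rule, the weakest regions on both sides lay near the p-value limit of the lists. The weakest site inside, at chr18:13586233-13586695, entered by a region with a -log10 p of 2.02 in its weakest WT list, and the next 2 by regions with 2.05. A further 1081 sites outside the chromosome 13 stretch had a region in all 4 WT lists and in a single ALKO list. The weakest of these was at chr7:2386040-2386500, where the single ALKO region had a -log10 p of 2.03, and the next 2 had 2.05 and 2.06. Over the 1081 sites the single ALKO region had a median -log10 p of 4.81, and in 127 it was below 3, so most were not at the limit. The ALKO library that held the region was replicate 2 at 3 h post UV for 525 of the 1081 sites, replicate 1 at 3 h post UV for 224, unchallenged replicate 1 for 212 and unchallenged replicate 2 for 120. Each list is a condition of the rule, so leaving out a list relaxes it and larger counts follow. Without WT unchallenged replicate 1 or 2 the rule gave 1234 or 864 sites, and without WT 3 h post UV replicate 1 or 2 it gave 977 or 685. Leaving out an ALKO library gave 617 and 525 without unchallenged replicates 1 and 2, and 634 and 933 without 3 h post UV replicates 1 and 2. Without these WT lists in turn, 405, 395, 398 and 390 of the 408 sites were still among those kept. Without any single ALKO list all 408 were.

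The 10 strongest sites, by mean percentile, had fold enrichments between 3.65 and 19.2 in single WT libraries. None was at a promoter. In the order unchallenged replicates 1 and 2, then 3 h post UV replicates 1 and 2, the chromosome 21 site had fold enrichments of 6.45, 14.2, 15.3 and 19.2. Its nearest coding start site, that of TPTE, was 94538 bp away, and the nearest region of any ALKO list was 26280 bp away. The CLASP1 site, 4338 bp from a start site of this gene of a microtubule plus-end protein, had 7.58, 18.2, 10.8 and 17.9, with an ALKO region 441 bp away. The chromosome 5 site had 9.19, 14.3, 13.7 and 14.1 and lay 670148 bp from the nearest coding start site, that of CTNND2, which encodes delta-catenin. At all 3 sites unchallenged replicate 1 was the lowest library. The unchallenged and UV libraries overlapped at the last 2, and at the chromosome 21 site both UV libraries were higher, with a difference of the means smaller than the gap between the unchallenged replicates.

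A site in an intron of GPC6, a glypican gene, had fold enrichments of 8.39, 9.54, 8.62 and 12.8. It lay on chromosome 13 at 93963524 to 93964519, below the excluded stretch, and no ALKO list held a region within 147704 bp. Near CDH6, a cadherin gene 2001917 bp away, a site inside the noncoding gene LINC02109 had 6.13, 9.49, 7.08 and 15.5. Its 50 summit bases occurred at 2 places in the reference, whereas those of the other 9 occurred once. The remaining strong sites were an intron site of TUT7, an intron site of NET1, and intergenic sites nearest to MTMR8, STPG2 and ST8SIA6. In 7 of the 10 the highest library was 3 h post UV replicate 2, which is also the library with the highest median over the 408 sites and over all sites. The exceptions were CLASP1, CTNND2 and TUT7.

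**Figure D2:**
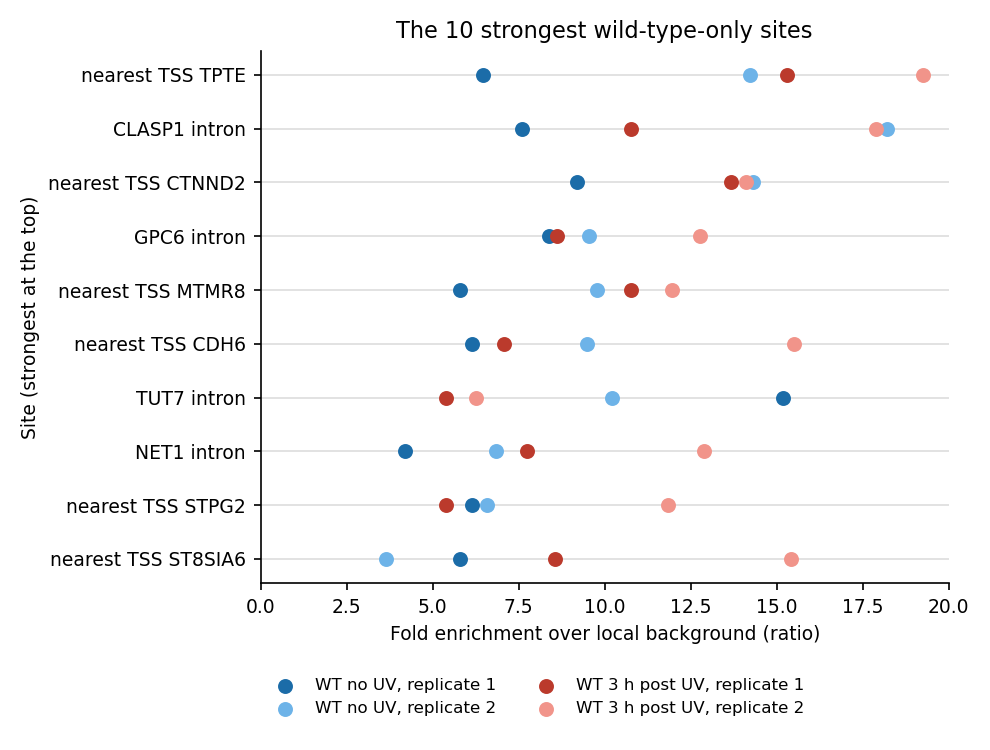
Fold enrichment over local background (horizontal axis, a ratio) of the 10 strongest wild-type-only sites (vertical axis, strongest at the top), one point per WT library. The points of a site spread widely, from 6.45 to 19.2 at the site nearest to TPTE, and at TUT7 both unchallenged libraries lie above both libraries 3 h post UV.

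By the summit, 38 sites (9.31%) lay within 1 kb of a start site of a protein-coding gene, 174 (42.6%) in the rest of such genes and 196 (48.0%) outside them. The best yardstick is a class that also needs 4 lists, the 19768 sites held by any 4 of the 8 lists, of which 9.16%, 40.5% and 50.4% fell into the same classes. All sites of the 4 WT lists were more often at promoters (21.5%), as were sites held by all 8 lists (23.4%). Sites of the opposite kind, held by all 4 ALKO lists and no WT list, numbered 1022 and lay at promoters in 10.2%, in gene bodies in 34.2% and between genes in 55.6%. No stretch of the genome was left out of these comparison classes, unlike the 408 sites, and 115 of the 1022 lay on chromosome 4. The 408 sites had a median width of 508.5 bp and a median GC content of 47.8%, against 492 bp and 48% in the sites held by any 4 lists and 530 bp and 52% in the ALKO-only sites.

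Of the 38 promoter sites, 15 were within 1 kb of the 5' end of the gene as annotated and 23 at another start site of the gene. In 15 of these 23 the 5' end itself carried a region in all 4 ALKO lists, so the site was a second or internal start of a gene whose outer promoter was accessible in both genotypes. In 4 of the 23 (SYCE1, MYH15, PYGO2 and SMIM24) no ALKO list held a region at the 5' end, but no WT list did at the first 3 either, and 1 WT list did at SMIM24. Of the 15 sites at the 5' end, 9 had no ALKO region within 1 kb of it, 2 had one in all 4 ALKO lists, and the others had one in some lists.

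SYCE1, a gene of the synaptonemal complex of meiosis, had the strongest promoter site, 67 bp from a start site inside the gene and 4185 bp from its 5' end, with fold enrichments of 6.27, 5.54, 7.03 and 10.0 in the order given above. The site at the 5' end of HELLS, which encodes a chromatin remodeler needed for DNA methylation, had 3.50, 5.75, 7.46 and 6.40. It was 1366 bp wide and 566 bp from an ALKO region, and 1 ALKO list had a region within 1 kb of the 5' end. At both genes all 4 values were above the median of the 408 sites in the same library.

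Among the genes whose 5' end was accessible in all 4 WT lists and no ALKO list, ARMC3, an armadillo repeat gene, had 3.23, 7.30, 4.53 and 9.08, and the nearest ALKO region was 30187 bp away. NRCAM, a neuronal cell adhesion gene of the immunoglobulin superfamily, had 3.83, 3.77, 4.71 and 7.90. KLRG2, a lectin-like receptor gene, had 2.90, 2.92, 5.95 and 5.72, with both libraries 3 h post UV above both unchallenged libraries. The other 6 such genes were PRTFDC1, NALF1, SERPINF1, ANKRD52, CXCR3 and ANKRD61. Of these, CXCR3 encodes a chemokine receptor, SERPINF1 a secreted serpin and NALF1 a subunit of the NALCN channel complex. Their mean percentiles ran from 27.3 at ANKRD61 to 46.8 at PRTFDC1.

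Internal start sites were found in SMG6, which encodes an endonuclease of nonsense-mediated decay, with 4.84, 3.97, 4.93 and 7.55, 131513 bp from the 5' end, and in ZNF423, CCDC88A, HOXC4 and MYH15. HOXC4, a homeobox gene of the HOXC cluster, had 4.58, 5.49, 2.96 and 3.28 at a site 36358 bp from its 5' end, with both unchallenged libraries above both libraries 3 h post UV and an ALKO region 176 bp away. A site of the CTCF gene was 305 bp from an internal start and 10451 bp from any ALKO region, with fold enrichments of 3.23, 3.65, 3.40 and 2.99, while the 5' end of CTCF carried a region in all 8 lists. MTARC1 and TARBP1, at 166 and 165 bp from a start site, completed the strongest 15 together with the genes above.

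NET1, which encodes a guanine nucleotide exchange factor for RhoA, held a pair of the sites. The first, at chr10:5446359-5446916, was 64 bp from an internal start site and 34118 bp from the 5' end, and had fold enrichments of 3.23, 6.82, 4.88 and 5.37. The second lay 2286 bp from a start site in an intron, at chr10:5449798-5450270, and had 4.19, 6.85, 7.73 and 12.9. Outside these 2 sites, which the rule chose, the gene held 3, 3, 3 and 4 regions in the WT lists and 1, 1, 1 and 3 in the ALKO lists, so the groups touched at 3, with ALKO regions no closer than 11975 and 15414 bp to these sites. The outer promoter of NET1 had a region in all 8 lists.

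In total 204 sites lay in 205 protein-coding genes. The median length of these genes was 149 kb, against 27.5 kb over all protein-coding genes. Longer genes cover more sequence, and the genes of the other classes of site were not measured. Of the 204 sites, 183 were in introns, 6 in coding exons, 8 in untranslated exons and 7 in other exons. A further 64 lay only in noncoding genes, and 140 in no annotated gene. The median distance to a coding start site was 22421.5 bp, and 92 sites were more than 100 kb away. Beside NET1, 7 genes held more than 1 site. ZNF423 and ZFHX3, both zinc finger transcription factor genes on chromosome 16, held 3 each. NRCAM, CDK14, a cyclin-dependent kinase gene, NEBL, which encodes an actin-binding protein of muscle, TIAM2, a Rac exchange factor gene, and CREB5, a bZIP factor gene, held 2 each.

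The rest of these genes was compared after leaving out the regions of the 408 sites, whose presence in WT and absence in ALKO the rule fixed. ZNF423 then had 41, 46, 35 and 36 regions in the WT lists and 27, 19, 23 and 36 in the ALKO lists, which overlap, and ZFHX3 had 81, 84, 65 and 65 against 37, 37, 48 and 55. By these counts every WT list was above every ALKO list in ZFHX3, CDK14, NEBL and TIAM2, which held for 3.47% of all 2535 protein-coding genes with a mean of at least 10 such regions. Per 100000 regions of a list, every WT list was above every ALKO list in ZNF423, ZFHX3, CDK14, NEBL and TIAM2 and not in NRCAM or CREB5. On that scale the same held for 7.42% of the 2535 genes, and the opposite for 5.72%. In CREB5 the WT lists held 76, 54, 59 and 50 other regions and the ALKO lists 86, 52, 60 and 62. The genes were picked for holding sites, so these values describe them and carry no test.

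Each of 9 lists of pathway genes had a site in 1 of its genes or in none. Over all protein-coding genes, 213 of 19962 (1.07%) held a site or had one at their promoter, and at that share a list of 20 to 59 genes would hold fewer than 1, so a count of 0 or 1 says nothing particular of a list. None of 20 histone H3 lysine 4 and lysine 36 methyltransferase genes did, nor did any of 31 nucleotide excision repair genes, 32 osteoblast and mesenchymal regulators or 24 p53 targets. A single gene had a site in each of 5 lists. These were SPRED2, an inhibitor of MAP kinase signalling, of 24 AP-1 and MAPK feedback genes, and STK3, a Hippo pathway kinase, of 21 TEAD-YAP pathway genes. The others were COL4A2, a basement membrane collagen gene, of 40 matrix and adhesion genes, SEMA3C, a secreted semaphorin gene, of 41 axon guidance and neuronal adhesion genes, and HOXC4 of 59 homeobox cluster and developmental genes. The strongest of the 5 was the intron site of SEMA3C, with fold enrichments of 3.23, 5.65, 3.68 and 5.78. The weakest was that of SPRED2, with 2.39, 3.27, 2.18 and 2.43, close to the floor of the lists.

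AP-1 matches were more frequent at these sites than at ALKO-only sites. In the 200 bp around the summit, 20.6% of the 408 sites held TGANTCA, against 9.78% of the ALKO-only sites, 17.9% of the sites held by any 4 lists and 23.2% of all sites of the 4 WT lists. The share over all union sites was 11.1%. Summits were not centred on this motif. Per 50 bp and 100 sites, the wild-type-only sites held 3.31 AP-1 matches within 50 bp of the summit, 7.92 at 50 to 200 bp and 1.41 at 200 to 400 bp. The same dip at the summit was seen in all sites of the 4 WT lists, with 5.23, 7.73 and 1.53, so a window of 200 bp misses many matches. With 400 bp around the summit the shares were 46.6% in the wild-type-only sites, 19.2% in the ALKO-only sites, 36.9% in sites of any 4 lists and 44.3% in all sites of the 4 WT lists. In 200 bp around the midpoint of the site they were 35.3%, 13.1%, 28.3% and 30.5%. The share in the wild-type-only sites was above that of the sites of any 4 lists, and above that of the ALKO-only sites, in all 3 windows. The order of the wild-type-only sites and the sites of the 4 WT lists changed with the window.

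By place, the 200 bp around the summit held an AP-1 match at 4 of 38 promoter sites (10.5%), 39 of 174 gene body sites (22.4%) and 41 of 196 intergenic sites (20.9%). Corresponding shares of ALKO-only sites were 8.65%, 9.43% and 10.2%. The strength of sites with and without a match was alike, with median mean percentiles of 43.3 and 45.9.

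The SP/KLF box GGGCGG was less frequent at the wild-type-only sites than at ALKO-only sites. It was found around the summit of 4.17% of the wild-type-only sites (95% Clopper-Pearson interval 2.45 to 6.59%, counting error only), against 12.6% of ALKO-only sites, 6.24% of sites of any 4 lists and 13.5% of all sites of the 4 WT lists. The interval includes the share of the sites of any 4 lists. In gene bodies it was found at 1 of 174 wild-type-only sites and 44 of 350 ALKO-only sites. At promoters the shares were 15.8%, 26.9%, 20.3% and 36.4% in the same order, and between genes 5.10%, 10.0%, 4.75% and 7.60%, so intergenic wild-type-only sites were not below the sites of any 4 lists. CCAAT, the NFY motif, was at 18.6% of the wild-type-only sites and 25.5%, 24.2% and 23.5% of the others, and the homeobox core TAATTA at 1.23% against 3.62%, 3.83% and 3.49%.

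RUNX (TGNGGT), at 43.6%, and TEAD (GGAATG), at 14.2%, were within 4 percentage points of the other 3 classes, where RUNX shares were 39.8% to 40.3% and TEAD shares 14.1% to 17.1%. The E-box CAGCTG was at 10.3%, against 15.7% of ALKO-only sites, 12.9% of sites of any 4 lists and 13.1% of all sites of the 4 WT lists. The GATA core AGATAA was at 10.0%, against 8.61%, 10.0% and 8.27% in the same order. The FOX core TGTTTAC was at 3.68%, against 6.16%, 3.20% and 3.04%, and the SOX core AACAATG at 3.19%, against 3.23%, 3.56% and 3.27%. A CTCF core, a CREB/ATF site (TGACGTCA) and an ETS site (CCGGAAGT) were each at 1 site, and the NRF1 palindrome or the NFI palindrome at none. Both strands were searched for every motif. Short motifs match by chance, and a match is a description of the sequence.

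**Figure D3:**
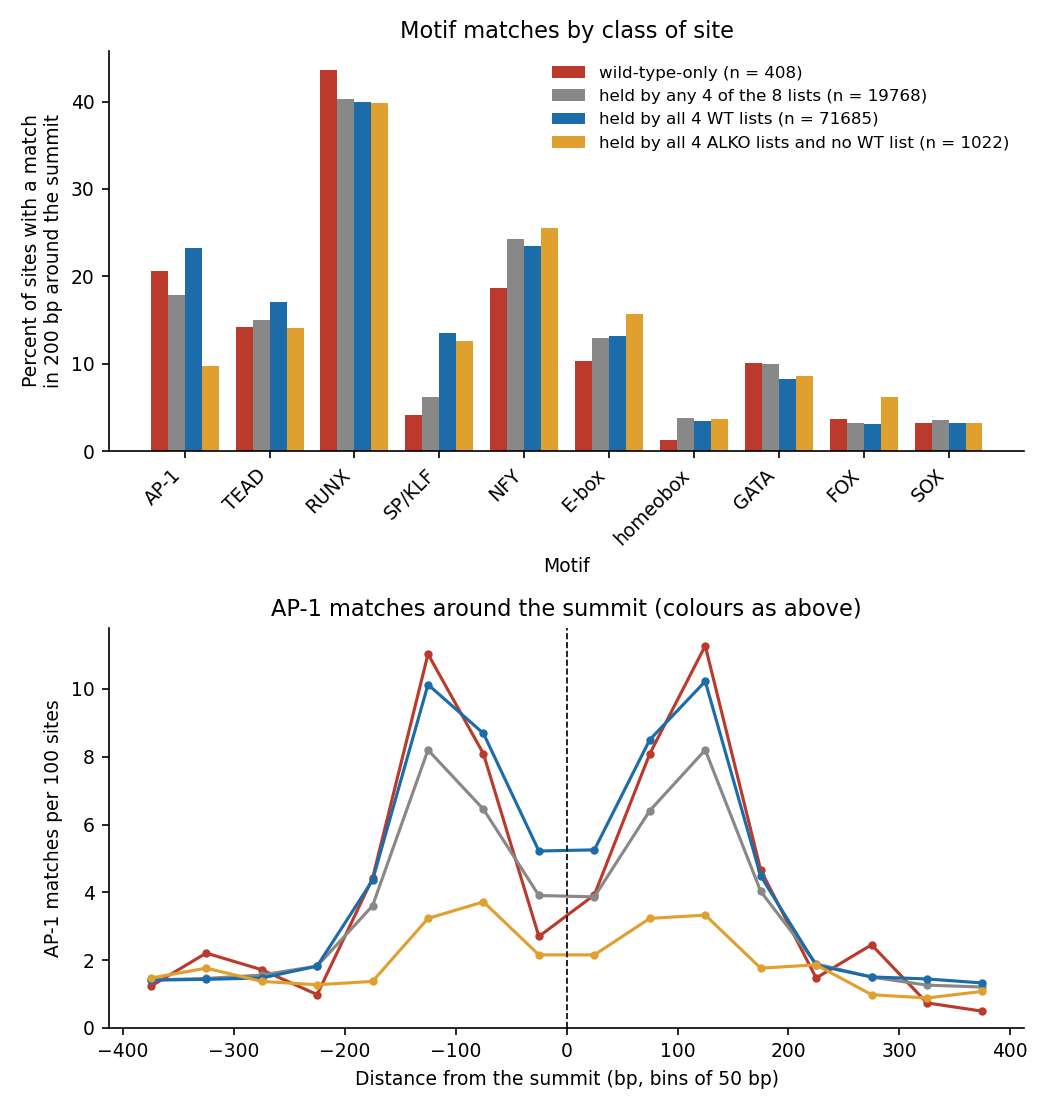
Upper panel, percent of sites with a match in 200 bp around the summit (vertical axis) for 10 motifs (horizontal axis) in 4 classes of site given by colour. Lower panel, AP-1 matches per 100 sites in bins of 50 bp (vertical axis) by distance from the summit in bp (horizontal axis), where the wild-type-only sites, at 3.31 per bin within 50 bp and 7.92 between 50 and 200 bp, show matches on both sides of the summit and the ALKO-only sites show few.

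The sites were spread over all chromosomes examined, but unevenly. Chromosomes 1, 10 and 7 held 55, 37 and 35 of them. Per 1000 sites of the 4 WT lists there were 5.70 over the genome, with 12.4 on chromosome 13 even without the excluded stretch, 9.87 on chromosome 10, 9.53 on chromosome 7 and 8.63 on chromosome 21. The lowest values were 0.639 on chromosome 22, with 1 site, and 1.16 on chromosome 15, with 3. On some of these chromosomes the whole list moved the same way. Chromosome 1 held 8.84 to 9.09% of all regions of a WT list and 7.67 to 8.29% of an ALKO list, chromosome 16 held 3.21 to 3.36% and 2.402 to 2.89%, and chromosome 15 held 3.56 to 3.73% and 4.12 to 4.39%. On chromosome 10 the ranges were 5.30 to 5.80% and 5.19 to 5.56% and overlapped, and on chromosome 7 the shares were 5.43 to 5.49% in WT and 5.55 to 5.81% in ALKO. The part of chromosome copy number in these values was not tested.

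**Figure D4:**
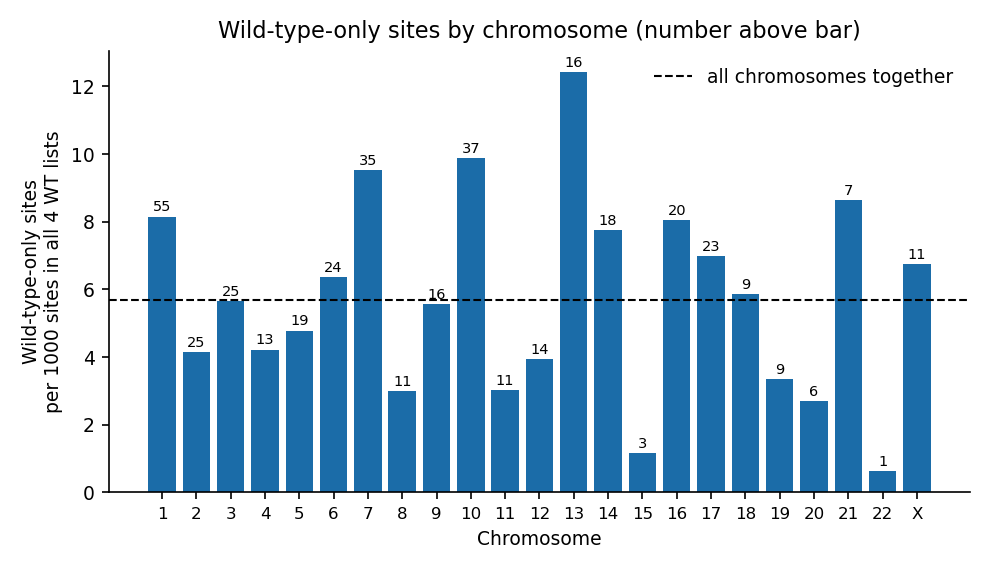
Wild-type-only sites per 1000 sites held by all 4 WT lists (vertical axis, bars from 0) on each chromosome (horizontal axis), with the number of wild-type-only sites above each bar. The dashed line is the value over all chromosomes, 5.70, and chromosome 13 (12.4) and chromosome 22 (0.639) are farthest from it.

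Of the 408 sites, 27 had another within 100 kb, and other classes of site were not counted in this way. The windows of 5 Mb with most sites held 5 each and lay at 10 to 15 Mb of chromosome 5, 20 to 25 Mb of chromosome 10, 65 to 70 Mb of chromosome 14 and 30 to 35 Mb of chromosome 17. That of chromosome 10 held both sites of NEBL and the promoters of ARMC3 and PRTFDC1, and no ALKO-only site. On chromosome 13 the windows next to the excluded stretch held 3 sites each. There the WT lists had 101, 113, 107 and 142 regions between 90 and 95 Mb against 48, 50, 64 and 69 in the ALKO lists, and 98, 131, 107 and 145 between 100 and 105 Mb against 43, 48, 68 and 87. The low number of ALKO regions thus ran beyond the excluded stretch on both sides.

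Around the sites, accessible chromatin was still present in the knockout. Within 50 kb of the 408 sites there were 3384 and 3429 other regions in the unchallenged WT lists and 3095 and 3211 in the WT lists 3 h post UV. The ALKO lists held 3372 and 2655 unchallenged and 2808 and 3270 at 3 h post UV. Relative to the length of the list, this was 1885 ± 52.97 regions per 100000 in WT (SD, n = 4, unchallenged and UV libraries together). In ALKO it was 1636 ± 76.4 (SD, n = 4, likewise). The mean was 1.15 times as high in WT, with ranges of 1808 to 1924 in WT and 1527 to 1698 in ALKO. Only the regions of the site itself were left out. Other wild-type-only sites nearby were still counted, and by the rule they add to the WT lists only. Of the 408 sites, 27 had another within 100 kb. The genotype contrast picked the sites, and regions around other classes of site were not counted. These values are therefore a description and carry no test, and the part of chromosome-wide differences in them was not tested. A region of some ALKO list lay within 500 bp of 77 sites and within 1 kb of 115, and the median distance to the nearest was 2558.5 bp. The 13 sites with no ALKO region within 50 kb included 4 on chromosome 13 (GPC6 and 3 sites outside coding genes), and others in CDK14, ADAM22, DPP6 and PUDP. In 11 of the 13 a WT list had another region within 50 kb.

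Reads from repeated sequence could place regions wrongly. Per the study's methods, alignments of low mapping quality, non-primary alignments and blacklisted stretches had been removed before peaks were called. How far this settled the placement at single sites was not tested. The 50 bases at the summit occurred more than once in the reference for 26 of the 408 sites (6.37%), against 4.47% of all sites of the 4 WT lists. The site at chr13:33786758-33787513 had 341 copies and a site in UGP2 had 38.

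The question left to a test is whether the sites moved with UV in WT cells, since the rule used no UV contrast. It did ask for a region in all 4 WT lists, so a site without a region before or after UV could not enter. The same holds for all 71685 sites tested, but these were stronger. Only 10 of the 408 were in their upper 50% of mean fold enrichment, so the shares below are not matched for strength. Most of the 408 sites did not pass the test. Of the 408 sites, 2 were higher and 2 lower 3 h post UV (limma on quantile-normalized log2 fold enrichment, Benjamini-Hochberg adjusted p below 0.05 over all 71685 sites of the 4 WT lists, n = 2 and 2). Over all those sites 2.04% were higher and 0.79% lower, and the wild-type-only sites stood at 0.49% each. Both libraries 3 h post UV were above both unchallenged libraries at 66 sites (16.2%, against 22% of all sites) and below both at 109 (26.7%, against 24.8%). The median difference was -0.09 on the log2 scale, against -0.03 over all sites, and the middle 50% of sites lay between -0.37 and 0.21. Without WT 3 h post UV replicate 1 or without replicate 2, the UV arm is a single library that is assumed to vary like the unchallenged pair, and limma called 0 of the 408 sites and 0 of all sites. At an unadjusted p below 0.05, 6 of the 408 were higher and 7 lower in the first case and 7 and 6 in the second, and over all sites 4641 and 4807, and 3476 and 3147.

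The strongest rise was at chr2:223888935-223889725 in an intron of WDFY1, which encodes a protein of endosomes. Its fold enrichment was 2.90 and 2.56 in unchallenged cells and 10.2 and 13.01 at 3 h post UV, with no overlap of the groups. The difference was 1.77 ± 0.35 (SE) on the log2 scale with an adjusted p of 0.0067. The summit pileups were 8, 6, 46 and 52 reads. Without UV replicate 1 or 2 the difference at WDFY1 stayed at 1.71 and 1.79, while the adjusted p was 0.19 and 0.24. The other rise was at chr5:72402150-72403000, 67043 bp from the nearest coding start site, that of PTCD2, a mitochondrial RNA-binding protein gene. There the fold enrichment went from 2.90 and 2.56 to 11.05 and 8.44, by 1.46 ± 0.37 (SE) with an adjusted p of 0.030. With the recovered summit pileup over depth the adjusted p at the PTCD2 site was 0.11. Neither the WDFY1 site nor the PTCD2 site had a q-value below 0.05 in all 4 WT lists. Their unchallenged fold enrichments were below the medians of the 408 sites, 3.23 and 3.65. Without UV replicate 1 the difference was 0.99 with an adjusted p of 0.38, and without UV replicate 2 it was 1.91 with 0.23.

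The TUT7 site, at chr9:86321211-86321969 and 1820 bp from a start site of this gene of an RNA uridylyltransferase, fell from 15.2 and 10.2 to 5.38 and 6.26. The difference was -1.41 ± 0.32 (SE) with an adjusted p of 0.017. Its summit pileups were 100, 27, 18 and 22 reads, so unchallenged replicate 1 stood apart, and without that library the adjusted p was 0.14 at a difference of -1.05. Without UV replicate 1 or 2 the difference was -1.58 and -1.29 with adjusted p of 0.15 and 0.31, and with pileup over depth it was -2.19 with 0.077. The second lower site, at chr9:62801505-62801787 in the noncoding genes LINC01410 and ENSG00000287168, had 3.88 and 4.45 before and 2.01 and 2.72 after, a difference of -1.11 ± 0.30 (SE) with an adjusted p of 0.043. Its summit pileup relative to depth was 9.05 and 13.8 before and 5.93 and 12.3 after. These ranges overlapped, with an adjusted p of 0.21 for that measure. This second lower site did not have a q-value below 0.05 in all 4 WT lists.

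**Figure D5:**
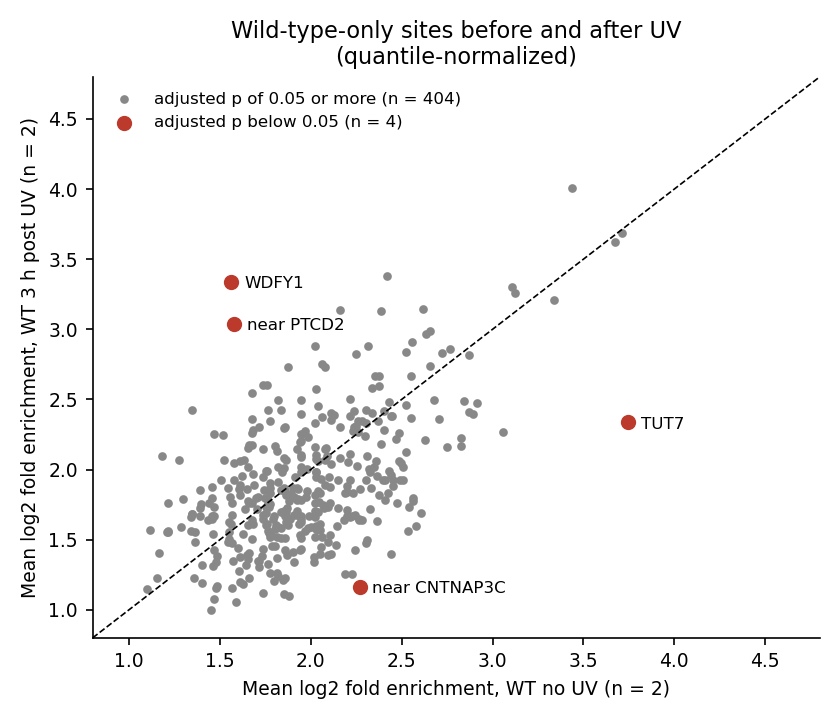
Mean quantile-normalized log2 fold enrichment of each of the 408 wild-type-only sites in unchallenged WT cells (horizontal axis, n = 2) and in WT cells 3 h post UV (vertical axis, n = 2), with equality as a dashed line. The 4 sites with an adjusted p below 0.05 are red, and the grey cloud lies on both sides of the line, with a median difference of -0.09.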

How the data were processed

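ATAC-seq had been done on 8 libraries of U2OS cells, 2 in each of 4 groups taken from the sample titles. Per the labels and the study's methods, the authors trimmed reads with cutadapt 1.9.1, aligned them with Bowtie2 2.4.5 to hg38, filtered them with SAMtools 1.7, bedtools 2.29.2 and Picard, and called peaks in each library with MACS2 2.2.7.1, without pooling replicates. Each deposited list gives a fold enrichment (a ratio of summit pileup to local background), a -log10 p-value and a -log10 q-value, none of them normalized between libraries. The deposited lists carry no read counts. A shift of reads to the Tn5 cut site is not given in the sources used here, and it would move summits. The score column, a capped value that MACS2 had written for the authors on the basis of the p-value, was not used.

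Several records can share an interval, so a region was a distinct interval with the summit of highest fold enrichment. Union sites, members and the 1 bp overlap were defined as in the text. MACS2 defines fold enrichment as (pileup + 1) / (background + 1) and p as a Poisson tail, and solving both gave summit pileups that were whole within 0.02 in 100% of solved regions, and the lowest background as depth. Genes came from GENCODE release 44. The 15 motifs were searched on both strands in 200 bp (400 bp as an alternative) of the reference. The UV fit used limma 3.58.1 (R 4.3.3) with a trended prior on quantile-normalized log2 fold enrichment of the 4 WT libraries, tested on simulated data. With 2 libraries a group, an exact permutation test cannot pass 0.05. Same-numbered WT libraries did not deviate together (correlation 0.028 across sites), so replicates were not paired.

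The sites, gene lists and motifs were chosen with earlier results of these data known. Named in the text were the 10 strongest sites, the 15 strongest promoter sites, genes with more than 1 site, genes of the lists with a site, and sites past the UV threshold; CTCF, UGP2, PYGO2, SMIM24, the remaining genes whose 5' end lacked ALKO regions and the genes of sites without ALKO regions within 50 kb were named after their values were seen. The class of sites held by any 4 lists, the copies of 50 summit bases, the window around midpoints and the counts of regions in genes without those of the sites were also chosen after seeing the data. Python 3.11.15 was used. Some sequences are not reported here.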

Additional observations from a re-analysis of the deposited data

How the results depend on the processing

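The number of sites was 381 with regions of a q-value below 0.05 and 392 with a q-value of 0.01 or below, but these sets held 271 and 175 of the 408 sites, because a stricter threshold also removes weak ALKO regions. It was 419 with coverage of at least 50% of a site (121 of the 408) and 331 with no ALKO region within 500 bp. With the top quartile of each list it was 181, which held 6 of the 408. Leaving out 1 library, which drops a condition of the rule, gave 525 to 1234. The share at promoters was 14.2% with 2 kb and 16.2% with all annotated genes, with 52.5% in gene bodies and 31.4% between genes in the latter; placement by midpoint moved 0 of the 408 sites to another class. Within 400 bp the shares rose to 46.6% for AP-1, 27.7% for TEAD, 71.1% for RUNX, 9.80% for SP/KLF, 36.5% for NFY, 20.3% for E-box, 3.92% for homeobox, 14.5% for GATA, 6.62% for FOX and 5.64% for SOX matches, as a wider window must. Around the midpoint they were 35.3% for AP-1 and 0% for CREB/ATF. The ratio of surrounding regions, in which other wild-type-only sites were still counted, was 1.14 with 200 kb. Absence from a knockout list means that no region reached a p-value of 0.01 at that depth.

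In the UV fit, sites higher among the 408 numbered 1 with recovered pileup over depth, 0 of 271 with a q-value below 0.05 in all 4 WT lists and 0 of 10 in the upper 50% of fold enrichment. Lower sites numbered 0 without normalization, 6 with median centring, 0 with pileup over depth, and 1 under each of the 2 filters. Without 1 library the higher sites ranged from 0 to 6 and the lower from 0 to 7, and over all sites from 0 to 2489 and from 0 to 1082. Over all sites the lower numbered 35 without normalization, 1418 with median centring and 324 in the upper 50%. The median difference of all sites was 0.30 without normalization and -0.11 with median centring, and that of the 408 sites 0.19 and -0.21. A fit with the replicate number as a block gave 3 higher and 2 lower of the 408 and 2511 and 1249 of all sites; the numbers do not pair these samples. The WDFY1 site kept its direction in every fit and had an adjusted p below 0.05 except without either UV library (0.19 and 0.24, at differences of 1.71 and 1.79 against 1.77), and was left out by the 2 filters. The cause of these shifts was not tested.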
